A study of Mus musculus with 30 samples.

Results

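The 10 genes described here encode the core of the immediate early response: the AP-1 subunits Fos, Fosb, Jun, Junb, Jund and Atf3, the zinc finger factors Egr1, Egr2 and Egr3, and the nuclear protein Ier2. They were chosen by name, and all 10 were found among the 47643 genes of a table of FPKM values (fragments per kilobase of transcript, relative to the fragments of the library) from 30 RNA-seq libraries. The libraries came from microglia of 3-month-old mice in which the Alzheimer's disease risk gene Bin1 had been floxed. WT mice carried a single floxed Bin1 allele and no Cre (Bin1 wt/flox). Het mice had the same Bin1 genotype together with Cre driven by Cx3Cr1, the Cx3Cr1-Cre+ allele, and Homo mice had that Cre on a Bin1 flox/flox background. There were 4 WT, 5 Het and 5 Homo females and 5 WT, 6 Het and 5 Homo males, with 1 mouse per library. Every mouse carried at least 1 floxed allele, and Cre, knocked into Cx3cr1, was present in every Het and Homo mouse and in no WT mouse, so the effect of Cre and that of losing the first Bin1 copy cannot be told apart. Per the study's methods, brains were dissociated with Accutase in the cold and CD11b+ CD45med cells were sorted. The growth protocol in the labels instead describes cultured newborn microglia, exposed to human Tau, then LPS, then ATP. The study describes such cultures for its work on extracellular vesicles, and sorted microglia for its RNA sequencing. By that account the sorting applies to these libraries, and the protocol in the labels was not tested against the measured values.

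Immediate early genes are transcribed within minutes of a stimulus without new protein synthesis, because their regulators, such as serum response factor with its ternary complex partners and CREB, are already bound or present and are switched on by MAP kinases. FOS proteins cannot pair with themselves and act on DNA as dimers with a JUN protein, whereas JUN proteins can also pair with each other or with ATF3. EGR proteins bind GC-rich sites and are held back by the NAB corepressors. In microglia these genes follow activating signals, and they are also known to be switched on by the enzymatic dissociation of tissue, which is why they serve as a readout of handling in sorted cells.

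The labels were checked first. Bin1 ranged from 230 to 290 FPKM in male WT and from 39.9 to 55.6 FPKM in male Homo libraries, and from 244 to 271 FPKM in female WT and from 39.5 to 43.3 FPKM in female Homo libraries. Of the 11 Het libraries, 2 stood apart: Bin1 was 42.7 FPKM in Het-F-0206 and 51.8 FPKM in Het-M-0199, within the Homo range of their sex, and Cx3cr1 was 13.9 FPKM in Het-F-0206 against 610.0 to 1243 FPKM in every other Cre+ library. The values that moved most without these 2 libraries are given after the comparisons. The microglial markers P2ry12 and Tmem119 were at 3509 to 5359 and 1424 to 2581 FPKM over all libraries. The lymphocyte markers summed to at most 0.674 FPKM. The depth, recovered from the steps between low FPKM values, was about 6640000 to 13980000 fragments per library, with a median of 9920000.

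Promoter windows of 4 members are shown because they differ in their matches to elements known from immediate early genes. Each is the 250 bases before a RefSeq transcription start (build GRCm38.p6, strand of the gene, 5′ to 3′), and capitals mark matches on either strand to 1 of 6 elements. Those are the cAMP response element TGACGTCA, its half-site TGACGT, which the full element contains, the TPA response element TGACTCA, the Jun-type AP-1 element TGACATCA, the EGR site GCGTGGGCG, and the CArG box that serum response factor binds.

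Fos (chr12:85473640-85473889, + strand): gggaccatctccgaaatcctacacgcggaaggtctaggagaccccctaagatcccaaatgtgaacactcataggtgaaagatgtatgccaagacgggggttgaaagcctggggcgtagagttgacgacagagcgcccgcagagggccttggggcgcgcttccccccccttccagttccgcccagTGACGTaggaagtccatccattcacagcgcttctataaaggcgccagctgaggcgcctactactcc
Jun (chr4:95052223-95052472, - strand): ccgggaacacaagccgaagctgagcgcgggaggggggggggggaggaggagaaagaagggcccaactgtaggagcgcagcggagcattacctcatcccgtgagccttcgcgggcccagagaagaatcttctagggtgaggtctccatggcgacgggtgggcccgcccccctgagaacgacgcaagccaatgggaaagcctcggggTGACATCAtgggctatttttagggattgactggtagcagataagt
Atf3 (chr1:191183334-191183583, - strand): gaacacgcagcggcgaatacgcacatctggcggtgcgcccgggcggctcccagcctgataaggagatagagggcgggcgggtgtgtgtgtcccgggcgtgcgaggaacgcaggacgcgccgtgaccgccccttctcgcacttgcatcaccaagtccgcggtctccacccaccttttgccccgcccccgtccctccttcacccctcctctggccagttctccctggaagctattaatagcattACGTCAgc
Egr2 (chr10:67537619-67537868, + strand): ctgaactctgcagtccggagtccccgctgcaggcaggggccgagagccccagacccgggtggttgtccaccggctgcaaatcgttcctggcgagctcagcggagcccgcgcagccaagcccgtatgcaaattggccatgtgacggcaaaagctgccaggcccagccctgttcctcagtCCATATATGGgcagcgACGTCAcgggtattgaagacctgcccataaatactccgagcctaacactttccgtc

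The Fos and Atf3 windows each held a cAMP response element half-site, at bases -66 to -61 and -8 to -3 from the start. The Jun window held the TGACATCA element at bases -45 to -38. The Egr2 window held a CArG box at bases -72 to -63 and a half-site at bases -56 to -51. It is 1 of 5 RefSeq windows of Egr2, of which 3 held both, 1 held a CArG box alone and 1 held neither. Among 32851 promoter windows of the same length, 6.47% held the half-site, 2.93% TGACATCA, 1.47% a CArG box, 1.55% TGACGTCA, 4.46% TGACTCA and 0.536% the EGR site. RefSeq promoters were found for 7 of the 10 members, and the windows of Junb, Jund and Fosb held none of these letters. The Jund window ended at base 70697738 of chromosome 8, whereas the measured gene starts further downstream, at base 70698949. Its lack of matches therefore does not describe the bases just before that start. The Atf3 window precedes a start inside the measured gene, which on its strand begins further upstream, at base 191218039 of chromosome 1. The printed Egr2 window also lies inside its gene, which begins at base 67535475 of chromosome 10. Matches in these 2 windows do not describe the bases before those outermost starts. These matches describe the sequence and do not show that a site is used. Bases outside the windows were not searched, so an element missing from a window may lie beyond it.

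Levels were compared per length, as mean FPKM over the 30 libraries. The JUN genes lay at the top and the FOS genes at the bottom. Junb, a JUN protein that can restrain c-Jun, averaged 85.9 FPKM and lay above 94.8% of the 16897 tested genes, those with a mean of at least 0.1 FPKM. Jun (c-Jun) averaged 26.5 FPKM, Jund 25.9, Atf3 10.7 and Ier2 7.09. Egr1 averaged 2.38 FPKM and Egr2 1.40. Fos (c-Fos), the usual partner of c-Jun, averaged 0.312 FPKM and lay above only 17.5% of the tested genes. Egr3 averaged 0.138 FPKM and Fosb 0.011 FPKM, so that 9 of the 10 members passed the filter and Fosb did not.

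**Figure D1:**
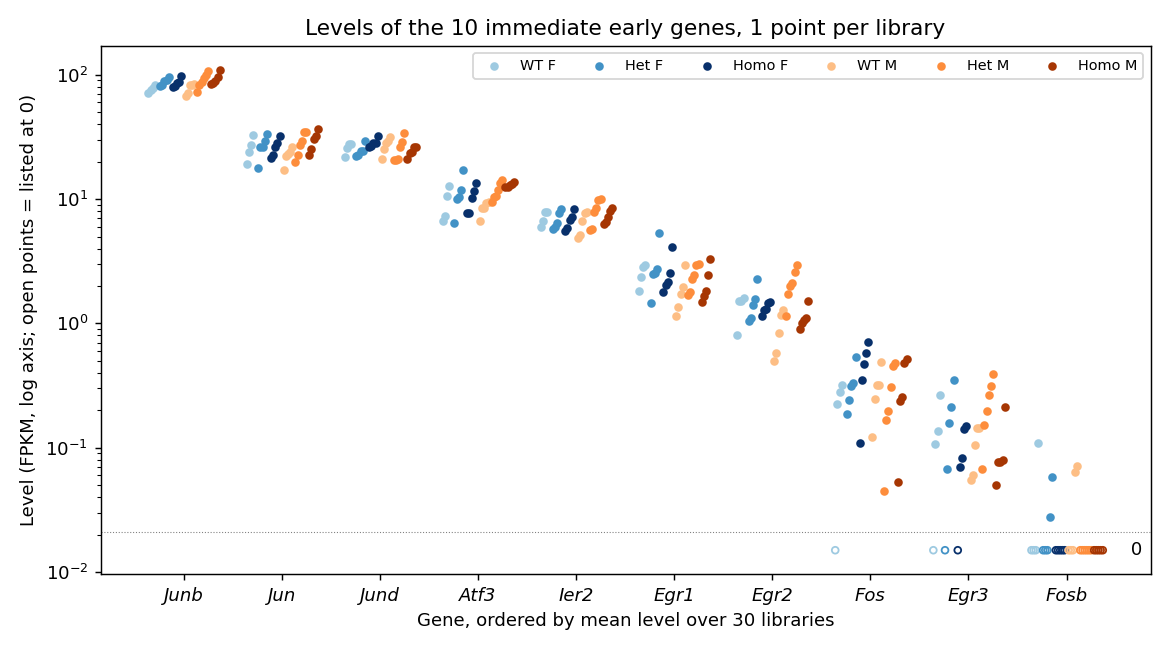
Level of each of the 10 genes in each of the 30 libraries in FPKM on a log axis, coloured by genotype and sex, with libraries listed at 0 drawn as open points below the dotted line. Junb lies above Jun in 30 of 30 libraries, Jun and Jund overlap, and Fosb is at 0 in 25 libraries.

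Most neighbours in this order kept their places within single libraries. Junb exceeded Jun in 30 of 30 libraries, and the lowest Junb level, 67.9 FPKM, was above the highest Jun level, 36.5 FPKM. Jun and Jund were not separated, with Jun the higher in 18 of 30 libraries and ranges of 17.3 to 36.5 and 20.6 to 33.7 FPKM. Jund exceeded Atf3 in 30 libraries, Atf3 exceeded Ier2 in 29, Ier2 exceeded Egr1 in 30 and Egr1 exceeded Egr2 in 27. Fos exceeded Egr3 in 23 of 30 libraries, and their ranges, 0 to 0.707 and 0 to 0.394 FPKM, overlapped.

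For the lowest members the number of fragments set what could be seen. Fos was represented by 0 to 12.6 fragments per library, 192.5 in all 30 libraries. Egr3 was represented by 0 to 5 fragments per library, 56 in all. Fosb had 13.2 fragments in all: it was at 0 in 25 libraries, and the other 5 held about 1, 2, 3, 3 and 4 fragments. Those were 2 Het females, 1 WT female and 2 WT males. A count of 0 allows up to 3 fragments, so a Fosb level below that could not be told from none, and no fold change is given for it. Within groups, the variance of the Egr3 fragments was 0.847 times that of counting alone and that of Fos 1.92 times. The corresponding ratio was 3.24 for Egr2, 3.67 for Ier2, 8.24 for Jund, 9.14 for Egr1, 10.5 for Atf3, 15.0 for Junb and 31.0 for Jun, so that for these genes the spread between libraries exceeded counting error. The median coefficient of variation within groups was 9.03% for Junb and 20.2% for Jun, and Jun varied more than 93.2% of the 1254 genes of like mean level.

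Whether loss of Bin1 changed the FOS and JUN genes was asked within each sex. None of the 9 tested members was called in any of 4 comparisons with WT, where a call required a limma Benjamini-Hochberg adjusted p below 0.05 over all tested genes and a fold change above 1.5. The share of all tested genes called was 1.81% for male Homo, 0.154% for male Het, 0.071% for female Homo and 0.13% for female Het. Without Het-F-0206 and Het-M-0199, Egr2 in male Het was called and no other member in any comparison. At an unadjusted p below 0.05, 1 of 9 members (Atf3) passed in male Homo against 22.5% of all genes and 1 (Egr2) in male Het against 14.2%. None passed in female Homo (3.49% of all genes) or female Het (3.95%). Without scaling, Jun and Junb also had such a p in male Homo, as given below. The median log2 difference over all tested genes was then 0.11. The 22.5% belongs to the scaled fit, and the share of all genes without scaling is not given. The median log2 difference of the 9 members was 0.16 in male Homo and 0.22 in male Het, against 0.03 and 0.01 over all tested genes.

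**Figure D2:**
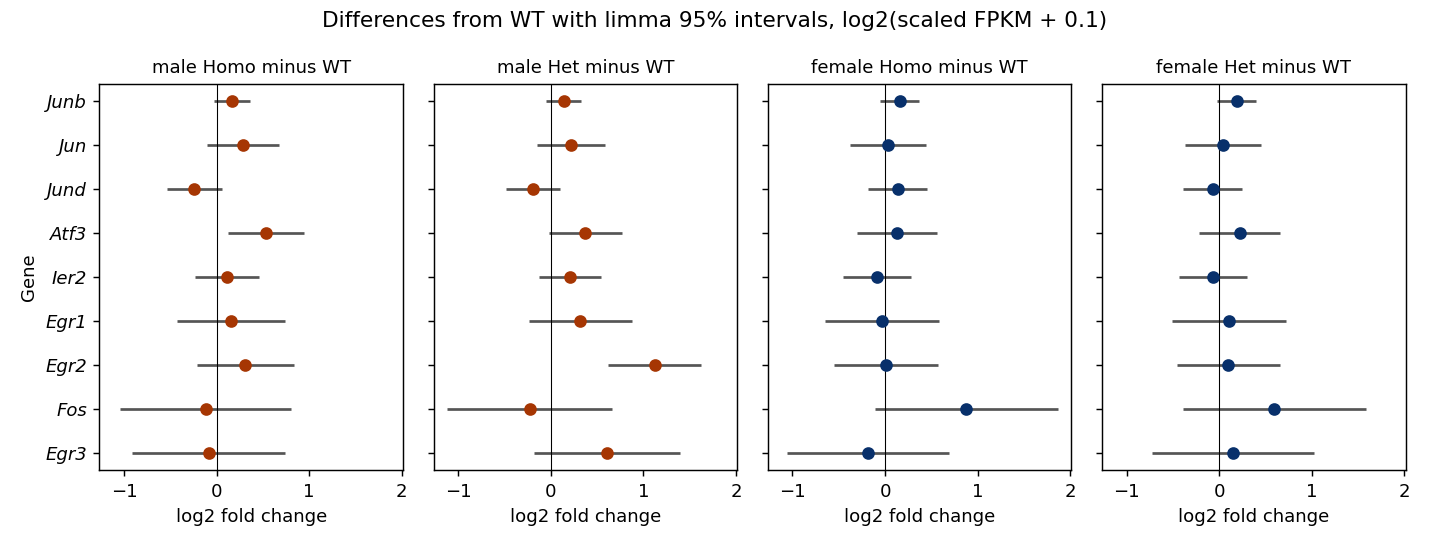
Difference from WT of the 9 tested genes in 4 comparisons, as log2(scaled FPKM + 0.1), with limma 95% intervals as lines. The interval of Egr2 in male Het (0.62 to 1.63) and that of Atf3 in male Homo (0.12 to 0.95) exclude 0, and no gene passed the adjusted p.

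Fos was 0.494, 0.248, 0.318, 0.122 and 0.321 FPKM in the male WT libraries and 0.477, 0.0535, 0.521, 0.257 and 0.237 FPKM in male Homo. In females it was 0, 0.319, 0.225 and 0.283 FPKM in WT and 0.354, 0.109, 0.707, 0.473 and 0.576 FPKM in Homo. The groups overlapped in both sexes. The log2 difference of Homo from WT was -0.12 (95% interval -1.05 to 0.81) in males and 0.88 (-0.11 to 1.86) in females, with limma adjusted p of 0.908 and 1. The difference in females was 0.397 without WT-F-0122, the library at 0, and ran from 0.254 to 1.66 with pseudocounts of 1 and 0.01. The 2 sexes were not shown to differ (interaction -0.999, adjusted p = 0.617 by limma).

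The JUN genes were measured more closely. Junb was 83.4, 71.5, 67.9, 84.4 and 82.5 FPKM in male WT, and 109.3, 96.8, 85.3, 83.9 and 89.7 FPKM in male Homo. The ranges overlapped slightly, with 4 of 5 Homo libraries above the highest WT library. The log2 difference was 0.17 (SE 0.10) in male Homo, 0.14 (SE 0.09) in male Het, 0.16 (SE 0.10) in female Homo and 0.19 (SE 0.10) in female Het, and limma adjusted p-values ran from 0.291 to 1. The comparisons within a sex share their WT libraries, so that the likeness of Het and Homo is not independent. With scaling, the intervals for Junb reached no further than 0.39 on the log2 scale. Without scaling, the male Homo difference was 0.25 (limma unadjusted p = 0.011, adjusted p = 0.114), where the median over all tested genes was 0.11.

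Jun averaged 22.6 ± 3.39 FPKM (SD, n = 5) in male WT, 28.0 ± 6.01 (n = 6) in male Het and 29.4 ± 5.59 (n = 5) in male Homo. In females it averaged 25.7 ± 5.80 (n = 4), 26.7 ± 5.74 (n = 5) and 26.2 ± 4.39 (n = 5) FPKM. Groups overlapped throughout, and the log2 difference in male Homo was 0.29 (SE 0.19, limma adjusted p = 0.369). Without scaling it was 0.37 (limma unadjusted p = 0.0434, adjusted p = 0.208). Jund, a JUN gene that is less dependent on stimulation than the others, averaged 27.1 ± 4.19 FPKM in male WT and 24.1 ± 2.22 in male Homo, a log2 difference of -0.24 (SE 0.15, limma adjusted p = 0.330). In female Homo the Jund difference was 0.14 (SE 0.16).

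Atf3, a stress-induced repressor that pairs with JUN proteins, gave the clearest separation between male Homo and WT. It was 9.44, 6.70, 8.44, 8.52 and 9.34 FPKM in male WT and 13.1, 12.96, 12.5, 12.6 and 13.7 FPKM in male Homo. Every Homo library lay above every WT library, as did no other member, while 3.94% of all tested genes showed no overlap in this comparison. The log2 difference was 0.54 (SE 0.20, unadjusted p = 0.0124, limma adjusted p = 0.115), so Atf3 was not called. Male Het libraries, 9.42 to 14.2 FPKM with a median of 11.2, overlapped WT by 1 library and gave 0.37 (SE 0.19, adjusted p = 0.372). Among females the spread was wider: Atf3 was 12.8, 7.32, 6.69 and 10.6 FPKM in WT and 13.6, 11.5, 10.2, 7.79 and 7.73 FPKM in Homo, a log2 difference of 0.13 (SE 0.21). Males and females were not shown to differ (interaction 0.41, limma adjusted p = 0.643). With late-numbered mice alone, as defined below, the difference in males was 0.63 (adjusted p = 0.564).

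**Figure D3:**
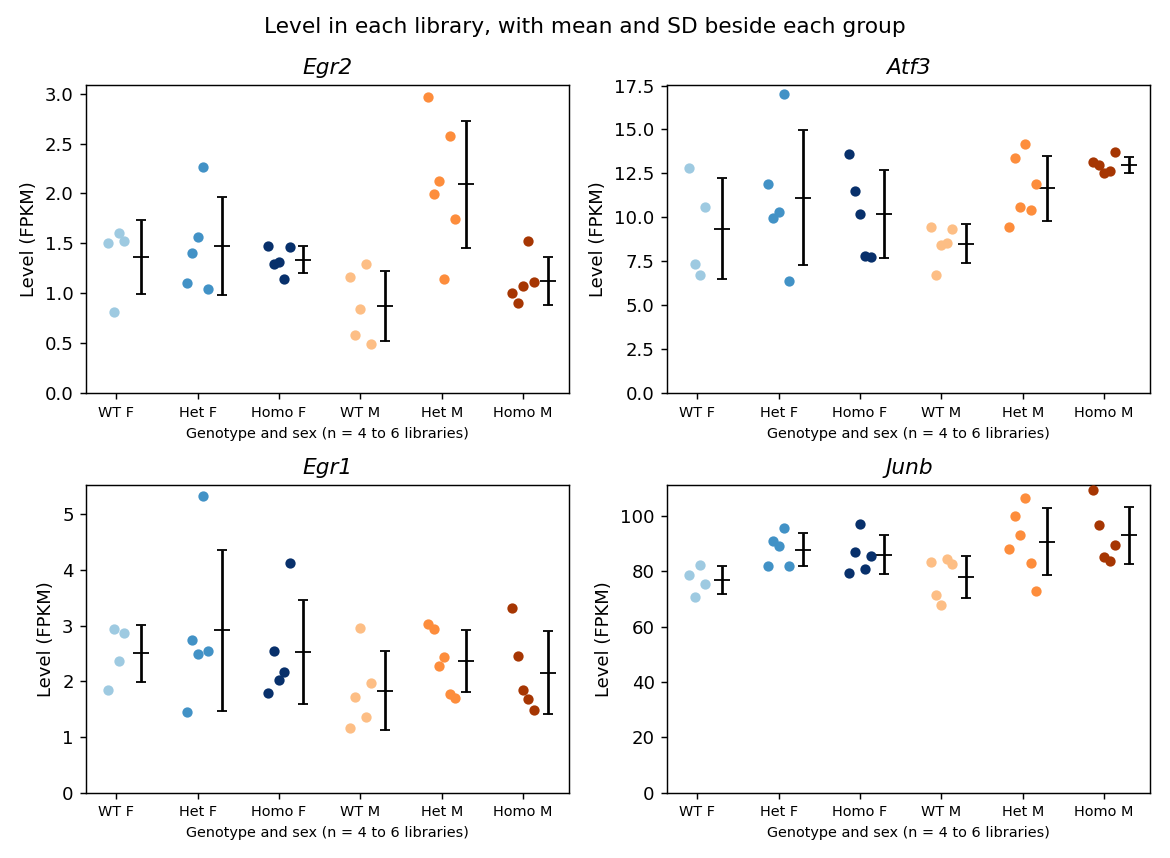
Level of Egr2, Atf3, Egr1 and Junb in FPKM in each library by genotype and sex, with the mean and SD drawn beside each group (n = 4 to 6). Egr2 is highest in male Het, where 5 of 6 libraries exceed every male WT library, and the 5 male Homo libraries of Atf3 lie between 12.5 and 13.7 FPKM, above all 5 male WT libraries.

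Of the EGR genes, Egr2, a factor needed for myelination that macrophages also induce on alternative activation, came nearest to a call. It was 1.17, 0.580, 0.838, 1.29 and 0.495 FPKM in male WT. In the 6 male Het libraries it ranged from 1.14 to 2.96 FPKM with a median of 2.06. In male Homo it was 0.999, 0.906, 1.07, 1.52 and 1.11 FPKM. Of the 6 male Het libraries 5 lay above every male WT and every male Homo library. The exception was Het-M-0199, 1 of the 2 whose Bin1 level went against its label.

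Egr2 averaged 0.873 ± 0.349 FPKM (SD, n = 5) in male WT and 2.09 ± 0.638 (n = 6) in male Het, a log2 difference of 1.12 (SE 0.25). Its unadjusted p was 8.9e-05, and 29 of the 16897 tested genes had a lower p, yet the limma adjusted p of 0.0501 missed the threshold. Without Het-F-0206 and Het-M-0199 the difference was 1.26 and the adjusted p 0.0215, so Egr2 was called. It was called too without scaling (adjusted p = 0.033), without WT-M-0176 (0.0476) and without WT-M-0202 (0.0248). The last 2 are the male WT libraries highest in Egr2. With each library left out in turn, the limma adjusted p ran from 0.0245 to 0.161. Over the planned settings other than leaving out a replicate, the limma adjusted p ran from 0.033 to 0.326, the latter with only the groups compared in the fit. With late-numbered mice alone the difference was 1.04 (adjusted p = 0.277).

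Egr2 in male Homo differed from WT by 0.31 (SE 0.26, limma adjusted p = 0.484), and male Homo lay 0.81 below male Het on the log2 scale (SE 0.25, unadjusted p = 0.00269, adjusted p = 0.998). That comparison called 0% of all tested genes, 1 of 9 members had an unadjusted p below 0.05, and so did 3.85% of all genes. In females Egr2 was 1.503, 0.811, 1.60 and 1.53 FPKM in WT, 1.11, 1.41, 1.56, 2.27 and 1.04 in Het, and 1.47, 1.29, 1.31, 1.14 and 1.47 in Homo. These groups overlapped, with a log2 difference of 0.10 (SE 0.27) for Het. The difference between the sexes in the Het effect was 1.023 (SE 0.37, unadjusted p = 0.00952, limma adjusted p = 0.860), in a test that called 0% of all genes and had 4.53% with an unadjusted p below 0.05; Egr2 was the only 1 of the 9 members among the latter.

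The remaining comparisons called no member either. Female Homo against Het called 0.0118% of all genes and 0 of 9 members, and 0 members against 2.06% of all genes had an unadjusted limma p below 0.05. The interaction of sex with Homo called 0% of all genes, with 0 members and 9.29% of all genes at an unadjusted p below 0.05. Its largest member values were those of Fos and Atf3 given above.

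Egr1, the most inducible EGR gene in many cell types, was 1.15, 1.72, 2.97, 1.36 and 1.97 FPKM in male WT and 3.32, 2.45, 1.84, 1.68 and 1.48 FPKM in male Homo. In female Het it was 1.45, 2.75, 2.498, 5.32 and 2.55 FPKM. The groups overlapped, and the log2 differences from WT ran from -0.03 to 0.32 over the 4 comparisons (limma adjusted p of 0.591 to 1). Egr3, a paralogue of Egr1 and Egr2, averaged 0.102 ± 0.043 FPKM in male WT, 0.232 ± 0.118 in male Het and 0.099 ± 0.064 in male Homo, each of these libraries holding 1 to 4 fragments. Its log2 difference in male Het was 0.61 (95% interval -0.18 to 1.40).

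Ier2, a short intronless immediate early gene, averaged 6.48 ± 1.40 FPKM in male WT, 7.95 ± 1.92 in male Het and 7.33 ± 0.946 in male Homo. Its log2 difference was 0.21 (SE 0.16) in male Het and 0.11 (SE 0.17) in male Homo, and -0.06 and -0.09 (SE 0.18 each) in the corresponding females. None passed (limma adjusted p of 0.545 to 1).

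Leaving out Het-F-0206 and Het-M-0199 moved some values of Het mice by over 1.5 times, on the log2 scale. In male Het the difference from WT became 0.08 for Junb, 0.14 for Jun, 0.12 for Ier2 and -0.29 (from -0.19) for Jund, and the last then had an unadjusted p of 0.037 (limma adjusted p = 0.274). In female Het it became -0.03 (from -0.07) for Jund, -0.04 (from -0.06) for Ier2 and 0.26 (from 0.15) for Egr3. The difference of Egr2 between male Homo and Het became -0.95 (limma adjusted p = 1) and that between the sexes in its Het effect 1.16 (limma adjusted p = 0.712).

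The other genes of the pathway were taken from lists, described by their counts. Of 13 further bZIP genes, among them Fosl2 (1.56 FPKM) and Fosl1 (0.184 FPKM), none was called in male Homo or male Het, and 2 and 1 had an unadjusted limma p below 0.05, against 22.5% and 14.2% of all genes. The 2 tested NAB genes, Nab1 (8.52 FPKM) and Nab2 (8.92 FPKM), were not called, and Egr4 (0.045 FPKM) was too low to test. Of 12 regulators of the SRF, TCF and CREB families none was called and none had an unadjusted p below 0.05 in either. Of 14 MAP kinases none was called in male Homo, where 6 had an unadjusted p below 0.05 against 22.5% of all genes; Mapk3 (ERK1) differed by -0.45 (limma adjusted p = 0.0552) and Mapk14 (p38 alpha) by -0.32 (0.0709). No gene of these lists was called in females.

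Calls appeared in the neighbouring lists in male Homo, where 1.81% of all tested genes were called. Of 6 tested MAP kinase phosphatases 1 rose, Dusp5, which acts on ERK in the nucleus, by 1.39 on the log2 scale (limma adjusted p = 0.0319). Dusp5 was low, at 0.115 ± 0.121 FPKM (SD) in male WT and 0.428 ± 0.097 in male Homo. The pseudocount of 0.1 therefore weighs on its fold change, and its fragments were not counted. Dusp1 lay at 2.03 FPKM over all libraries. Of 27 other immediate early genes, Ier3 rose by 1.26 (adjusted p = 0.0362) and Klf2, a quiescence factor, fell by 1.69 (0.00988), as did Zfp36l1, an mRNA decay factor, by 0.79 (0.0171). Zfp36l1 also fell in male Het, by 0.77 (adjusted p = 0.0489). Of 18 genes known to rise in microglia handled ex vivo, the cytokine genes Tnf and Il1a rose by 1.95 and 0.60 and Nfkbiz, a nuclear IkB protein, by 1.13 (adjusted p of 0.0066, 0.0267 and 0.0111). Their medians, over each list, were 0.20, -0.11 and 0.22 against 0.03 over all genes. At an unadjusted limma p below 0.05 lay 3 of 6, 13 of 27 and 7 of 18 genes, against 22.5% of all genes. In male Het these were 1, 10 and 9 genes, against 14.2%. Values of the ex vivo list were also higher in 10 of 18 genes in male Het (median 0.21), 15 in female Homo (0.16) and 17 in female Het (0.27). None was called there, and 2 in female Homo and 4 in female Het had an unadjusted p below 0.05, against 3.49% and 3.95% of all genes.

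**Figure D4:**
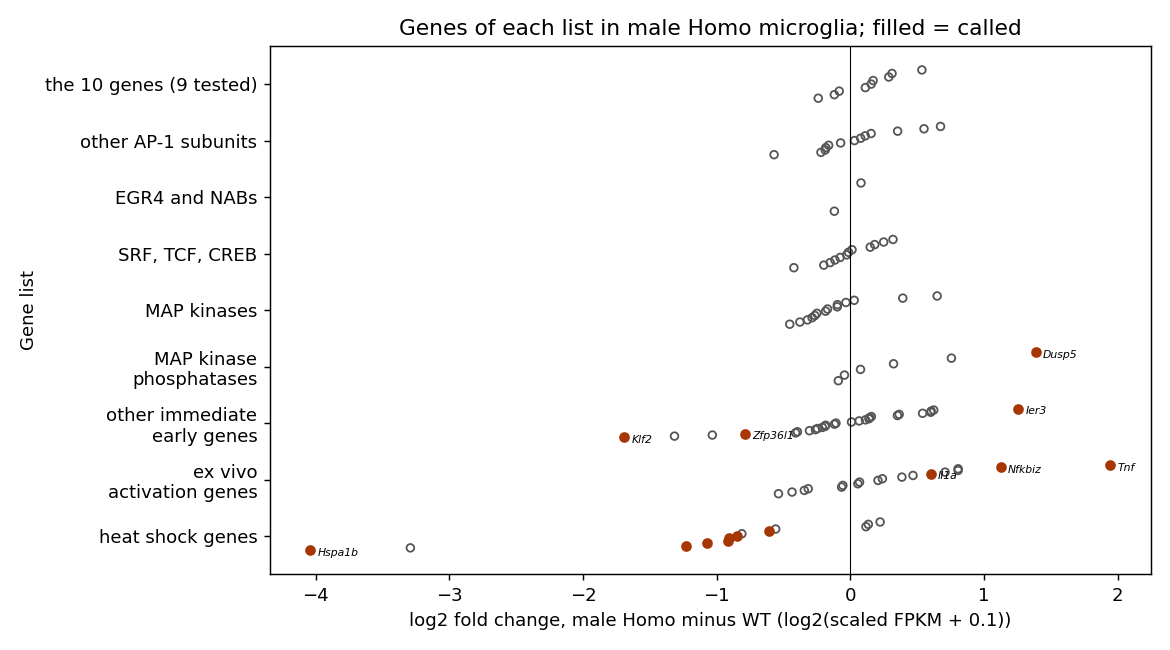
Log2 difference of male Homo from male WT, on the log2(scaled FPKM + 0.1) scale, for each tested gene of 9 lists, with called genes filled. No filled point falls among the 9 tested members or the AP-1, EGR and NAB, SRF and MAP kinase lists, whereas 7 of 13 heat shock genes are called lower.

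Heat shock genes, a separate readout of stress, went down in male Homo, where the list's median was -0.85. Of 13, 7 were called lower and none higher, against 1.81% of all tested genes called. The list includes Hspa8, Hsp90aa1, Hsp90ab1, Dnaja1 and Dnajb1, which the study had already reported as repressed in male Homo microglia. The count is therefore not independent of the study's own result. Hspa1b, an inducible chaperone, fell by 4.04, from 4.93 ± 4.26 FPKM (SD, n = 5) to 0.108 ± 0.092 (n = 5), with a limma adjusted p of 0.0244. Hspa8, a constitutive chaperone, fell by 0.91 (adjusted p = 0.0075) and Hsp90ab1 by 1.23 (0.00145). Hsp90ab1 also fell in male Het by 0.92 (adjusted p = 0.0379). At an unadjusted limma p below 0.05 lay 10 of 13 in male Homo and 10 in male Het, against 22.5% and 14.2% of all genes. Values were mostly lower in females too, in 10 of 13 genes in Homo (median -0.15) and 11 in Het (-0.28), with no unadjusted p below 0.05. Every male WT mouse was late-numbered, and effects of genotype and mouse number range on these lists were not separated. The 13 genes summed to 869 to 1265 FPKM in male WT and to 588 to 683 FPKM in male Homo, without overlap. Over the same libraries 8 of the 9 tested members overlapped between the groups, and Atf3 was higher in every Homo library, as given above.

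Marker lists of other cells differed between groups as well, mostly without calls. The 11 neutrophil markers summed to 44.3 to 350 FPKM in male WT, 0.258 to 189.8 in male Het and 0.079 to 80.8 in male Homo, with Elane at 0 in every WT and Homo male. Of 8 tested, 4 were called lower in male Homo, as was the monocyte gene Chil3, against 1.81% of all tested genes called. The 7 border macrophage markers summed to 17.5 to 47.0 FPKM in male WT, 12.9 to 23.05 in male Het and 12.4 to 29.7 in male Homo. The 6 choroid plexus markers summed to 0.395 to 444 FPKM in male WT and 0.646 to 30.9 in male Homo, and 6 of 6 had lower values in Homo of both sexes (median log2 difference -2.23 in males and -1.82 in females, 0 called).

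The 5 erythrocyte markers lay in opposite directions in the sexes. They summed to 0 to 61.9 FPKM in male WT and 15.8 to 112.1 in male Homo, and to 30.3 to 197.1 in female WT and 0 to 22.02 in female Homo. All 5 had higher values in male Homo (median log2 difference 3.35) and all 5 lower values in female Homo (-3.50); none was called by limma, and 5 and 4 had an unadjusted p below 0.05. Of 7 astrocyte markers 6 had higher values in male Homo (median 0.52), with sums of 68.7 to 79.9 FPKM in male WT and 84.7 to 129.4 in male Homo. Slc1a3 made up most of these sums, with means of 72.4 FPKM in male WT and 92.7 in male Homo. Over all libraries Aldoc averaged 4.08 FPKM, and Gfap, Aqp4, Slc1a2, Gja1 and Gjb6 no more than 0.443. Of 6 tested oligodendrocyte markers 5 had higher values in male Homo (median 0.54), and none of the astrocyte or oligodendrocyte markers was called. In such bulk samples fewer cells of a type and less RNA per cell cannot be told apart, and the part of these cells in the values of the 10 genes was not tested.

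Mouse numbers formed an early range of 6 libraries, numbered up to that of WT-F-0122, and a late range of 24 libraries, numbered from that of WT-M-0176 on, and every male WT mouse was late. Within male Het and Homo, 5 early libraries were compared with 6 late ones. None of the 9 members was called, where 7.42% of all tested genes were, and none had an unadjusted limma p below 0.05, where 33.8% did. Egr1 came nearest, 0.43 higher in early mice (95% interval -0.000692 to 0.87, adjusted p = 0.148). Without Het-M-0199 it was 0.48 higher, with an unadjusted p of 0.039 and a limma adjusted p of 0.139. In the same early against late comparison, 11 of 13 heat shock genes had lower values in early mice (median -0.33). Of them 1 was called, higher, and 7 had an unadjusted limma p below 0.05. Among other immediate early genes 8 of 27 had such a p, among ex vivo genes 4 of 18 and among phosphatases 0 of 6, with 1, 1 and 0 called.

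The members varied together only in part. Levels were expressed as departures from the group mean in log2(scaled FPKM + 0.1), over 30 libraries. The departures were permuted freely across groups, with no allowance for the group means removed, so the permutation p-values are somewhat too small. Of 15 pairs, 1 passed by the adjusted permutation p of Pearson's r: Jun and Junb gave Pearson's r = 0.597 (permutation p = 0.00063, adjusted 0.00945) and Spearman's rho = 0.575 (permutation p = 0.00104, adjusted 0.0156). Without the 2 libraries farthest from the median of Jun, r was 0.546. Among the 24 late libraries r was 0.513 (adjusted permutation p = 0.0788), and without scaling 0.458 (adjusted permutation p = 0.173). Fos did not follow Jun (r = -0.06, rho = 0.043, adjusted permutation p of 0.866 and 0.947). Fos and Dusp1, both classic early genes, gave r = 0.394 (adjusted permutation p = 0.231) and rho = 0.494 (adjusted permutation p = 0.047). Without the 2 farthest libraries r was 0.361. Only the p of rho lay below 0.05, and so near it that this pair is not counted as passing. Fos and Jund gave r = 0.330 and rho = 0.369 over all libraries (adjusted permutation p of 0.285 and 0.228), and r = 0.583 among the 24 late libraries (adjusted permutation p = 0.0402). The last p is also near 0.05 and, being too small, is not counted as passing.

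**Figure D5:**
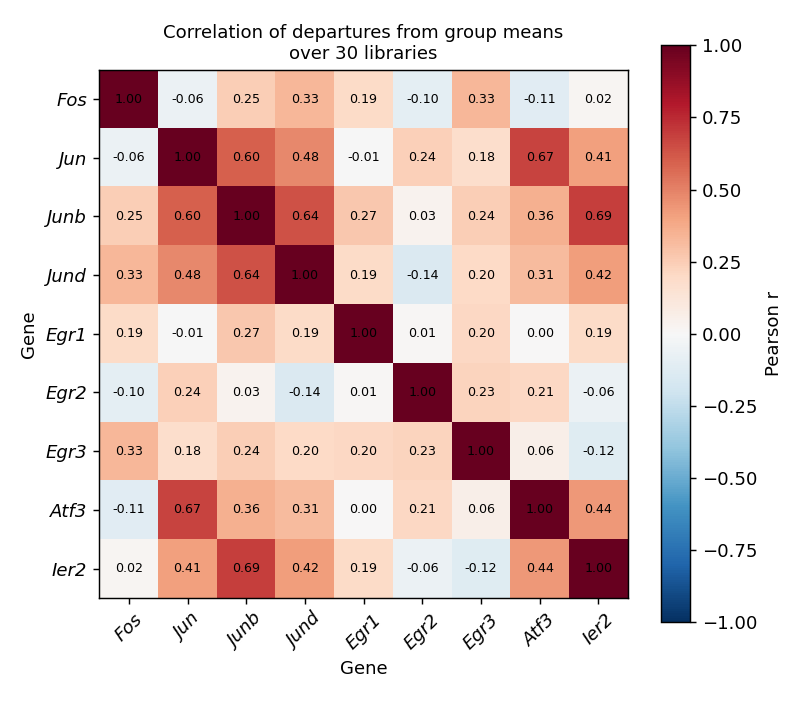
Pearson's r between the departures of the 9 tested genes from their group means in log2(scaled FPKM + 0.1), over 30 libraries. Among Jun, Junb, Jund, Atf3 and Ier2 every r is positive, the highest being 0.69 for Junb and Ier2, and Fos with Jund gives 0.33.

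Over all 36 pairs of tested members, as a description, r had a median of 0.21 and ran from -0.14 (Jund and Egr2) to 0.69 (Junb and Ier2). It was above 0.5 in 4 pairs: Junb and Ier2, Jun and Atf3 (0.67), Junb and Jund (0.64), and Jun and Junb. The points share their library, depth and scaling, and those of Fos and Egr3 rest on few fragments. The 8 genes outside the set, among 11622 with a mean of at least 1 FPKM, whose departures were most like the members' mean were Ubald1 (r = 0.736), Gm26541 (0.703), Armc5 (0.696), Mnt (0.652), Slc7a1 (0.645), Mgat4b (0.644), Zcchc3 (0.643) and Tmem132a (0.627). None of the listed immediate early genes was among them. The mean log2 level of the members was highest in Het-F-0220 (2.80), which also had the highest Egr1 (5.32 FPKM) and Atf3 (17.0 FPKM) of all libraries, and lowest in WT-M-0177 (1.93); these 2 libraries are named after their values were seen.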

How the data were processed

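Per the study's methods, RNA of sorted microglia was amplified with SMARTer v4, made into Nextera XT libraries and sequenced. The authors aligned reads to mm10 with OSA4 and quantified an Ensembl gene model with RSEM; the deposited values are FPKM, and 6 sample columns that match no listed sample were not used. The labels describe other library preparations. Members and lists were chosen with earlier results of these data known. FPKM values were divided by a median-of-ratios factor (genes with a mean of at least 1 FPKM), and log2(scaled FPKM + 0.1) was tested with limma 3.58.1 (R 4.3.3; intensity trend; 6 groups in 1 fit) over the 16897 genes with a mean of at least 0.1 FPKM. The pseudocount makes fold changes of low genes smaller. Genes were called past a 1.5-fold change at a Benjamini-Hochberg adjusted p under 0.05; interactions needed the adjusted p alone. The study's count model was not run, since FPKM are not counts. Fragments were recovered from whole-number steps of low genes, with a tolerance of 0.05 fragments for whole values: all values of Egr1, Egr3 and Ier2 came out whole, 76.7% of those of Fos and 16.7% of those of Jund, so fragments of multi-transcript or partly shared genes are estimates. Each library is 1 mouse. Correlations used 100000 two-sided permutations of the departures across all libraries, not within groups. Named genes were all members, at most 5 called genes per list and comparison by size of change, and the 8 genes most like the members' mean; genes named beyond these illustrate their list. Of 206 listed genes all matched a symbol. Alternatives were other pseudocounts, filters, scalings, array weights, fits of single comparisons, mouse number range, and each library left out; scripts were tested on simulated data.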

Additional observations from a re-analysis of the deposited data

Results flagged for a closer look

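Within groups, the highest and lowest library of each member were compared with Dixon's criterion, in 57 combinations of gene and group, and 3 stood apart, where chance flags about 1 in 20. In female WT, Fosb was 0.109 FPKM in WT-F-0192, about 4 fragments, with the other 3 libraries at 0. In the same library Egr2 was 0.810 FPKM (0.8105 as tabulated), below the next value of 1.503 FPKM. In male Homo, Egr3 was 0.213 FPKM in Homo-M-0093, about 2 fragments, above the next value of 0.0797 FPKM, about 1 fragment. The rate of 1 in 20 assumes continuous values and does not hold for the few fragments of Fosb and Egr3. No member's genotype difference was shown to differ between the sexes by the limma interaction test (0 of 9 for Homo and 0 of 9 for Het).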

How the results depend on the processing

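The count of called members stayed at 0 in every comparison and alternative except male Het, where Egr2 was called without scaling (1 member) and, chosen after seeing the data, without Het-F-0206 and Het-M-0199 (1 member); leaving out 1 library at a time gave 0 to 1, with Egr2 called without Het-M-0199, WT-M-0176 or WT-M-0202. The difference of Egr2 there was 0.67 to 1.26 over the alternatives and 0.95 to 1.26 with single libraries left out. Of 518 member values under alternatives 7 changed sign, none of a called gene: Fos in male Homo (0.0578) and Egr1 in female Homo (0.0211) with mouse number range as a term in the fit, Egr1 in male Homo (-0.14) and female Het (-0.0388) with late mice alone, and Egr2 in female Homo with a pseudocount of 1 (-0.00288), quantile normalization (-0.0435) and array weights (-0.0270). Of 474 values with a library left out 25 changed sign. In male comparisons with WT those were of Fos, which ran from -0.32 to 0.19 for Homo and from -0.43 to 0.0058 for Het. In female Homo they were of Jun (-0.0921 to 0.148), Egr1 (-0.218 to 0.0766), Egr2 (-0.196 to 0.0981), Egr3 (-0.538 to 0.0937) and Atf3 (-0.0135 to 0.284). In female Het they were of Jun (-0.0822 to 0.183), Egr1 (-0.148 to 0.327), Egr2 (-0.108 to 0.203) and Egr3 (-0.203 to 0.446), and for female Homo against Het of Egr2 (-0.193 to 0.0864). Of the 15 pairs, 0 passed without scaling (1 as reported). Sign changes with late mice alone were r of Fos with Fosb (-0.0367), Jun (0.175), Atf3 (0.0541) and P2ry12 (0.0185), and with a pseudocount of 1 of Fos with Jun (0.0024). The cause of these changes was not tested. Depth limits Fos, Egr3 and Fosb, with at most 12.6, 5 and 4 fragments in a library. No paired analysis was possible because mouse numbers are unique to each mouse and the groups share none.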
